A study of Mus musculus with 16 samples.

Results

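Peaks of the muscle transcription factor MyoD and of the histone mark H3K27ac were examined at 8 genes that encode regulators of RNA splicing and stability, namely Rbm24, Rbm38, Celf1, Celf2, Mbnl1, Mbnl2, Mbnl3 and Rbfox2, of 21887 protein-coding genes of the mouse. The genes were chosen by name, and regions were assigned to them by position: overlapping peaks of the 4 lists for an antibody were joined, and a joined region belonged to a gene when it lay on the gene body or within 50 kb of it with that gene as the nearest. The 8 genes held 42 of 24420 MyoD regions and 174 of 60038 H3K27ac regions, and no region belonged to more than 1 of them.

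The cells were satellite cells, which repair and renew skeletal muscle, taken from the hindlimb of C57BL/6 mice and grown in culture. LncMyoD is a long non-coding RNA. Each antibody was used on 2 control libraries and 2 libraries labelled as LncMyoD knockdown (LncMyoD-KD). The labels describe an exposure of 48 h to an siRNA against the RNA, in the same words for the controls, so control and knockdown are told apart here by title and genotype label, and what the controls received is not given. No measure of the RNA itself was used here, the age of the mice is not in the labels, and the origin of the replicates (animals, cultures) is not stated. Chromatin immunoprecipitation followed by tagmentation and sequencing (ChIP-seq) gave 8 lists of peaks, 1 per library. The lists hold 13146 to 17818 peaks for MyoD and 39964 to 54082 for H3K27ac, knockdown 2 being the shortest for both, and carry no read counts, so the depth behind each value is unknown.

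MyoD is a basic helix-loop-helix factor that binds short DNA motifs called E-boxes (CANNTG) and drives genes of the muscle programme. H3K27ac is an acetylated histone found at active promoters and enhancers. RBM24 and RBM38 are related proteins with an RNA recognition motif: RBM24 promotes muscle-specific exon use, and RBM38 affects transcript stability, including that of the cell cycle inhibitor Cdkn1a. CELF1 and CELF2 bind GU-rich RNA and act on splicing, decay and translation. The muscleblind proteins MBNL1, MBNL2 and MBNL3 oppose CELF proteins at many exons. MBNL1 and MBNL2 favour adult exon patterns and are sequestered by expanded repeats in myotonic dystrophy. RBFOX2 binds UGCAUG and sets exon choice during muscle differentiation.

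The RefSeq promoter table (GRCm38.p6, the assembly also called mm10) had entries for 7 of the 8 genes, with none for Rbfox2. Starts differed in where the nearest MyoD summit lay. They are represented by the 250 bases before the start of Rbm24, where the MyoD summits lay 56 to 70 bp downstream of the start, before the Celf2 start at 6872035, where it lay upstream, and before the Celf2 start at 6721662, where it lay 424 to 513 bp downstream. The windows are chr13:46418050-46418299 on the plus strand, chr2:6872036-6872285 on the minus strand and chr2:6721663-6721912 on the minus strand, written 5′ to 3′, with each CANNTG in capitals.
Rbm24: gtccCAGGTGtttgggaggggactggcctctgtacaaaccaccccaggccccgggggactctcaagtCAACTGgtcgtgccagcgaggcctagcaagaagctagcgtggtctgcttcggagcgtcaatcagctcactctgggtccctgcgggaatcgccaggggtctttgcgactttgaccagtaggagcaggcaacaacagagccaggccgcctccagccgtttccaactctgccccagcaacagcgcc
Celf2 (6872035): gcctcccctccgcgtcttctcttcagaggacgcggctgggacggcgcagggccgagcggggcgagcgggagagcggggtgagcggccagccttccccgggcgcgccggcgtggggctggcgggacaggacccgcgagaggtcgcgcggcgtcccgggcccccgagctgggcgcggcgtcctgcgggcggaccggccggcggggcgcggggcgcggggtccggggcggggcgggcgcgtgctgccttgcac
Celf2 (6721662): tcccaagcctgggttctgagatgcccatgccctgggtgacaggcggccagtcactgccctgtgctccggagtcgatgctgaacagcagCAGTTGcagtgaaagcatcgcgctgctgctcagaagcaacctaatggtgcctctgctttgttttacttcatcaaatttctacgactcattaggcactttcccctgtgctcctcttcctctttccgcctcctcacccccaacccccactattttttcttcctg
CANNTG, which reads the same on both strands, occurred in 66.2% of 32851 RefSeq windows of this length, and its variant CAGCTG in 13.0%. The Rbm24 window held 2 matches, CAGGTG with its first base 246 bases upstream of the start, outside the MyoD region, and CAACTG 183 bases upstream, inside it. Of this window 200 bases lay under the MyoD region. The Celf2 window at 6872035 held no match, had a GC content of 82.8%, and lay under the MyoD region for 10 bases only. These bases were reached by the MyoD peak of knockdown 1 alone. The Celf2 window at 6721662 held 1 match, CAGTTG at 162 bases upstream, and none of it lay under a MyoD region. None of the 3 windows held CAGCTG. These matches describe the letters in the windows, and no genome was at hand to read the bases under the summits themselves.

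The MyoD regions of highest fold at the splicing genes, in Rbm24, Celf2 and Rbfox2, had a peak in every library of both groups. A region with a peak in all 4 libraries is called constant here. Of the 42 MyoD regions 17 (40.5%) were constant, against 40.8% of all MyoD regions. Both controls and neither knockdown had a peak at 4 regions (9.52%), against 4.53% of all, at Rbm24 (2 regions), Celf2 and Mbnl2. The number was 2 with lists of equal length or a 10 kb flank, and 9 without control 1 or without control 2. It was 3 with −log10 q of at least 5 and 3 with folds of at least 5. These counts include regions other than the 4. Of the 4, only chr13:46463813-46464094 at Rbm24 stayed control-only with lists of equal length, and likewise under either of those thresholds. No region had a peak in both knockdowns and neither control, 0 of 42, which allows a share of up to 7.14% (counting error only), against 0.725% of all regions; without either knockdown library the number was 2. The other 21 (50%, against 54.0% of all) were mixed, and 14 of the 42 (33.3%, against 30.8% of all) had a peak in a single library. Averaged over the libraries with a peak, the fold had a median of 9.68 in constant and 5.15 in mixed regions of these genes, against 8.34 and 5.01 over all MyoD regions. The 17 constant regions were spread over 5 genes: Rbfox2 had 6, Celf2 had 4, Mbnl2 had 3, and Rbm24 and Rbm38 had 2 each. Celf1, Mbnl1 and Mbnl3 had none.

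**Figure D1:**
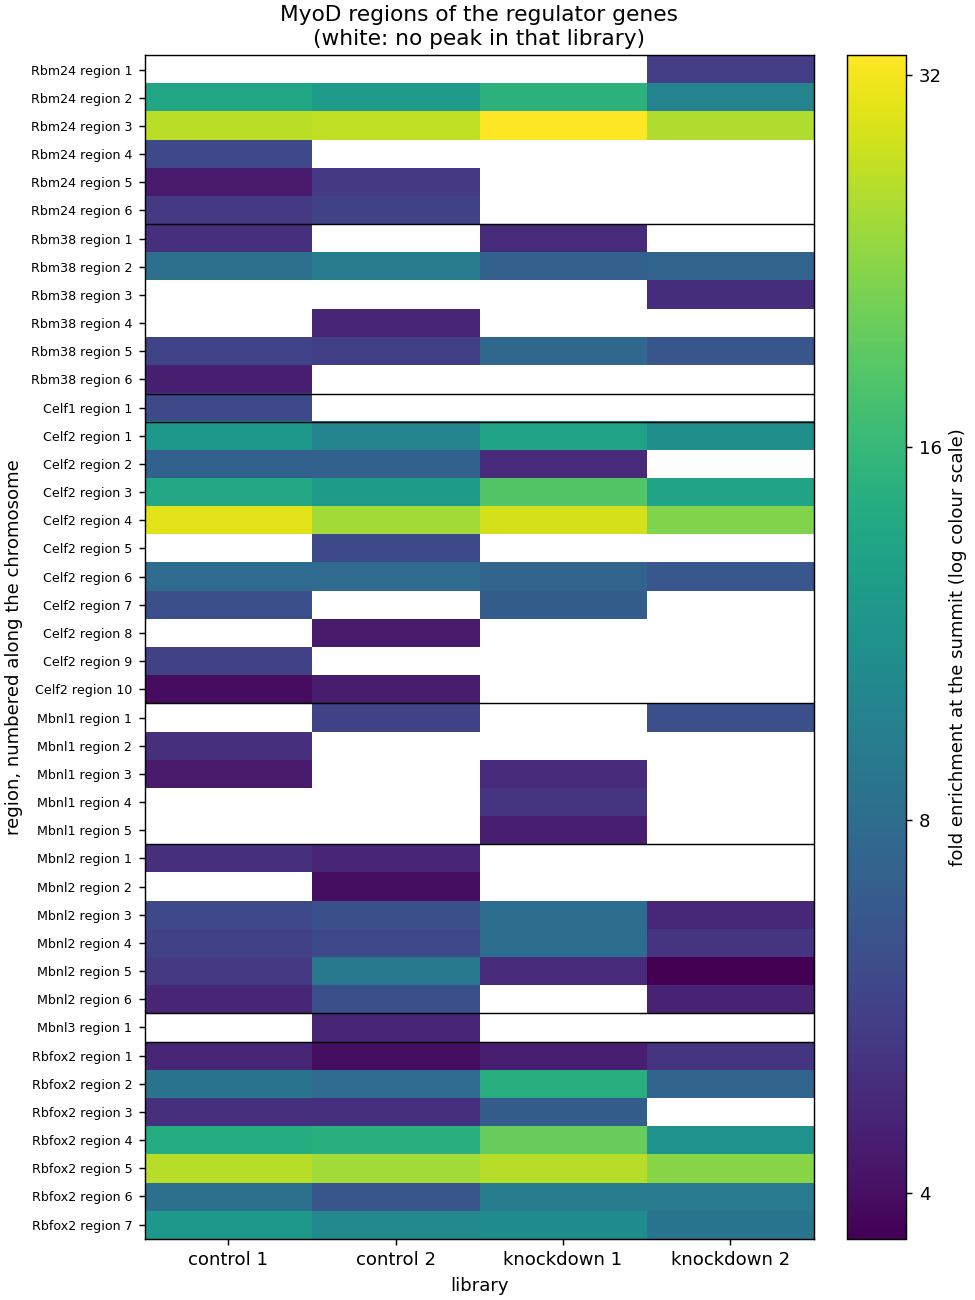
Fold enrichment over background, as deposited, of the 42 MyoD regions (rows, numbered along the chromosome within each gene) in the 4 MyoD libraries (columns), on a log colour scale, with white where the library had no peak. The brightest rows, Rbm24 region 3, Celf2 region 4 and Rbfox2 region 5, were filled in all 4 libraries, and the white cells fell among the dark, low-fold rows.

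The numbers of MyoD regions with a peak were 32 in control 1, 30 in control 2, 24 in knockdown 1 and 21 in knockdown 2. The groups did not overlap: the mean was 31 ± 1.41 in controls and 22.5 ± 2.12 in knockdowns (SD, n = 2 each), a difference of -8.5 regions. A two-sided exact permutation test gave p = 0.333, the smallest that 2 against 2 libraries allow. The difference was -3 when all MyoD lists were trimmed to equal length and -4.5 when only peaks of at least 5-fold were kept. Among all MyoD regions the shares with a peak were 72.5% and 71.9% in controls and 67.1% and 53.3% in knockdowns. The regulator genes' own shares were 76.2% and 71.4%, then 57.1% and 50%. The part of list length in the difference was otherwise not tested.

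**Figure D2:**
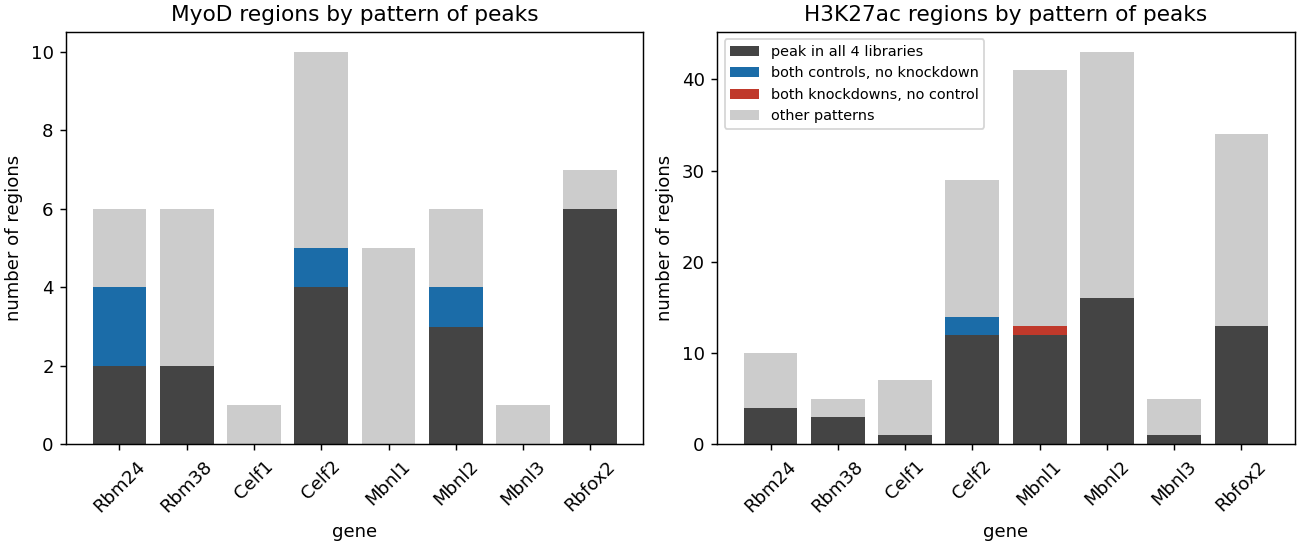
Number of MyoD regions (left) and H3K27ac regions (right) of each gene, stacked by which libraries had a peak. Constant regions made up 6 of 7 MyoD regions at Rbfox2 and none at Celf1, Mbnl1 or Mbnl3, and control-only MyoD regions stood at Rbm24, Celf2 and Mbnl2.

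Rbm24 carried the MyoD region with the highest mean fold of the set. It lay in the gene body at chr13:46428887-46429569, with its summit 11.0 kb downstream of the start. Its fold enrichment over background was 26.4 and 26.8 in controls 1 and 2, and 33.2 and 25.5 in knockdowns 1 and 2. A fold belongs to its own list, so libraries were compared by rank, as the percentile of the fold among the 9958 MyoD regions constant in all lists. The percentiles were 98.9, 99.1, 99.7 and 99.1 in the same order, so that this site was among the strongest in each library. At the start, chr13:46418100-46418618, the folds were 13.5, 12.3, 15.1 and 9.80, and the summits of the 4 libraries fell 56 to 70 bp downstream of the start site. Knockdown 1 was the highest and knockdown 2 the lowest, with both controls between them. At every other start in the promoter table the nearest MyoD summit lay 424 bp or more away.

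Rbm24 also held 2 of the 4 control-only MyoD regions, both beyond the end of the gene. The nearer, at chr13:46443963-46444438, lay 12.9 kb past the gene body and had folds of 4.30 and 5.30 in the controls. The farther, at chr13:46463813-46464094, lay 32.7 kb past it, with folds of 5.29 and 5.63 and summits 1 bp apart. Neither had a peak in either knockdown. The first stayed control-only under 2 of 8 other settings and the farther under 6 of 8. Gene bodies alone and a flank of 10 kb leave out both sites by construction, and the farther site failed under no other setting. Assignment to Rbm24 rests on its being the nearest protein-coding gene, and with gene bodies alone Rbm24 held 2 MyoD regions in place of 6.

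H3K27ac at Rbm24 formed 10 regions, 4 of them constant. The start region, chr13:46417654-46420335, had folds of 13.4 and 15.0 in controls and 14.6 and 14.4 in knockdowns. The region over the strongest MyoD site, chr13:46426144-46430185, had folds of 7.99, 7.40, 9.46 and 8.54 and ranked higher in both knockdowns. Around the farther control-only MyoD site, chr13:46463409-46464545 was acetylated in every library, with folds of 5.21 and 6.81 in controls and 4.37 and 4.72 in knockdowns. Its percentiles among the 26130 constant H3K27ac regions were 29.2 and 38.3 in controls, and 8.26 and 18.5 in knockdowns, so the groups did not overlap. The nearer control-only MyoD site overlapped an H3K27ac peak in control 2 alone.

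**Figure D3:**
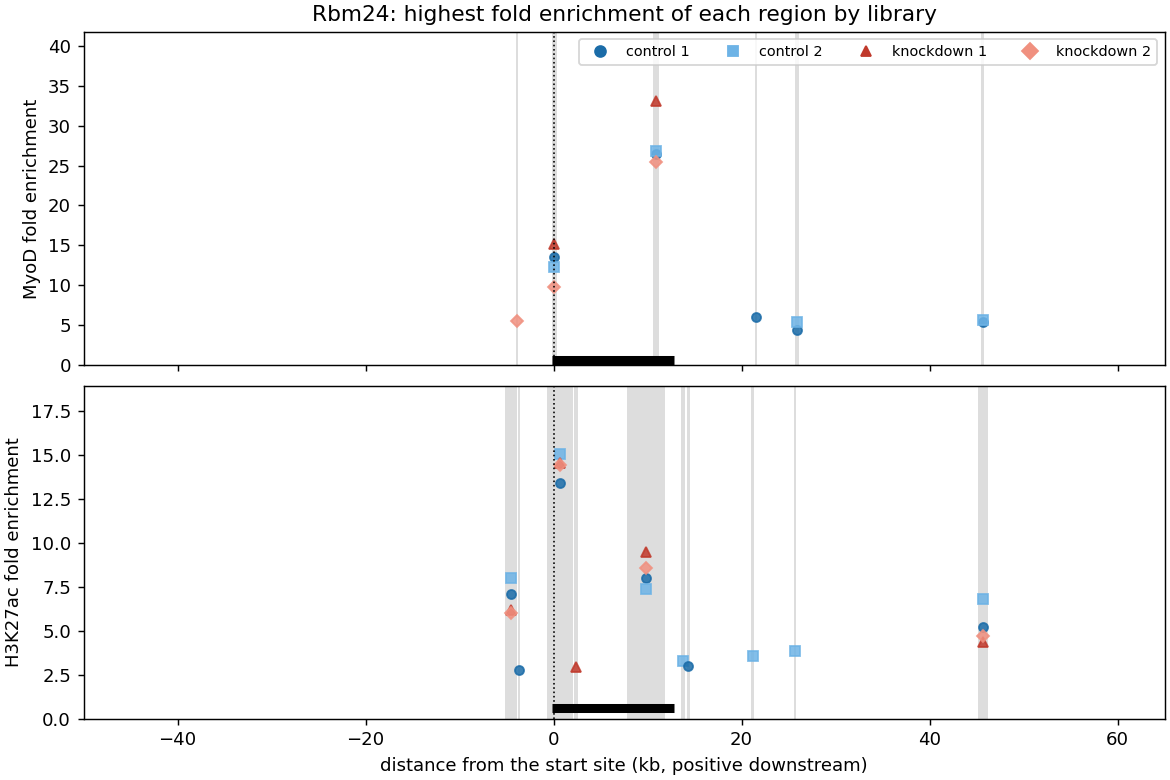
Fold enrichment of each MyoD region (top) and H3K27ac region (bottom) around Rbm24 against distance from the start site in kb, with 1 point per library that had a peak, region extents in grey, the gene as a black bar and the start as a dotted line. The MyoD points 21.6 to 45.6 kb downstream come from the controls alone, whereas the sites at the start and 11.0 kb downstream have all 4 libraries.

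Rbm38 had 6 MyoD regions, of which 2 were constant and none control-only. The stronger, in the gene body at chr2:173024863-173025587 and 3.17 kb downstream of the start, had folds of 8.26 and 9.27 in controls and 7.21 and 7.45 in knockdowns. Its percentiles of 44.8, 57.8, 32.5 and 46.7 put it in the middle of the constant regions, with the groups overlapping. The other, at chr2:173057550-173058059, lay 36.0 kb downstream of the start, with folds of 5.70, 5.50, 7.74 and 6.64. It ranked higher in both knockdowns. The start region of Rbm38 was acetylated in all libraries without a MyoD peak, at 5.39, 3.55, 6.55 and 5.48-fold. Only in control 1 and knockdown 1 did its H3K27ac peak reach into the window of the start itself. The H3K27ac region of highest mean fold, chr2:173057385-173059177, lay over the distal constant MyoD site, at 7.62 and 6.28-fold in controls and 7.10 and 7.52-fold in knockdowns, and the groups overlapped in rank. The nearest MyoD peak to the start, at -2113 to -1975 bp (negative is upstream), was present in control 1 and knockdown 1 only.

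Celf1 stood apart from Celf2. It had 1 MyoD region, at chr2:91004733-91005012 deep in the gene body, with a peak of 5.95-fold in control 1 and none in the other 3 libraries. Its H3K27ac start region, chr2:90940200-90942778, was constant, at 8.92 and 8.58-fold in controls and 11.8 and 8.03-fold in knockdowns. It was the only constant one among the 7 H3K27ac regions of Celf1. Only in knockdown 1 did its peak reach into the window of the start itself.

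Celf2, a gene of 857 kb with 5 annotated starts in the promoter table, held 10 MyoD regions, a number reached by 0.772% of all genes, without allowance for its length. The strongest, chr2:6876660-6877666, had folds of 30.1 and 24.5 in controls and 28.7 and 21.9 in knockdowns and percentiles of 99.6, 98.5, 99.0 and 98.1. Its summit was at -5.25 kb (negative is upstream) from the start at 6872035. A second constant region, chr2:6872276-6872848, had its summits at -629 to -569 bp from that start, with folds of 13.9, 12.3, 18.4 and 13.3. Both lay in 1 H3K27ac region of 8.35 kb, chr2:6870170-6878517, with folds of 22.5 and 27.8 in controls and 23.1 and 21.8 in knockdowns. Its groups overlapped in rank, and its percentiles ran from 99.2 to 99.7. The other constant MyoD regions of Celf2, at chr2:6667525-6668015 and chr2:7089039-7089544, had folds of 11.9, 9.94, 13.3 and 11.0, and of 7.93, 7.95, 7.37 and 6.66. The former ranked higher in both knockdowns and the latter in both controls.

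The start at 6721662 differed from the start at 6872035. Its MyoD region, chr2:6720996-6721393, had folds of 7.27 and 7.29 in controls and 4.79 in knockdown 1, with no peak in knockdown 2. The H3K27ac region over the start, chr2:6721126-6722117, was constant, at 5.21, 4.73, 5.28 and 3.70-fold. Next to it, chr2:6722197-6722668 was an H3K27ac region with peaks in the controls only, at 3.35 and 5.33-fold. It joined the constant region when peaks within 1000 bp were merged. Celf2 held the other control-only H3K27ac region of the set too, chr2:6589222-6589763, at 3.16 and 4.73-fold. A control-only MyoD region, chr2:7347131-7347430, lay 48.7 kb downstream of the start at 7396000, at 3.96 and 4.34-fold, without H3K27ac in any library. This weak region dropped out with −log10 q of at least 5, with folds of at least 5 and with lists of equal length. The H3K27ac region over the start at 7081302, chr2:7080209-7082600, was constant, at 12.3 and 12.7-fold in controls and 14.2 and 10.1-fold in knockdowns, and the nearest MyoD summits were at -8020 to -7887 bp from that start. The starts at 7396000 and 7396198 had no peak of either antibody in their windows, and the nearest H3K27ac peak, at -8.60 kb from the latter, was in control 1 only, at 3.16-fold.

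**Figure D4:**
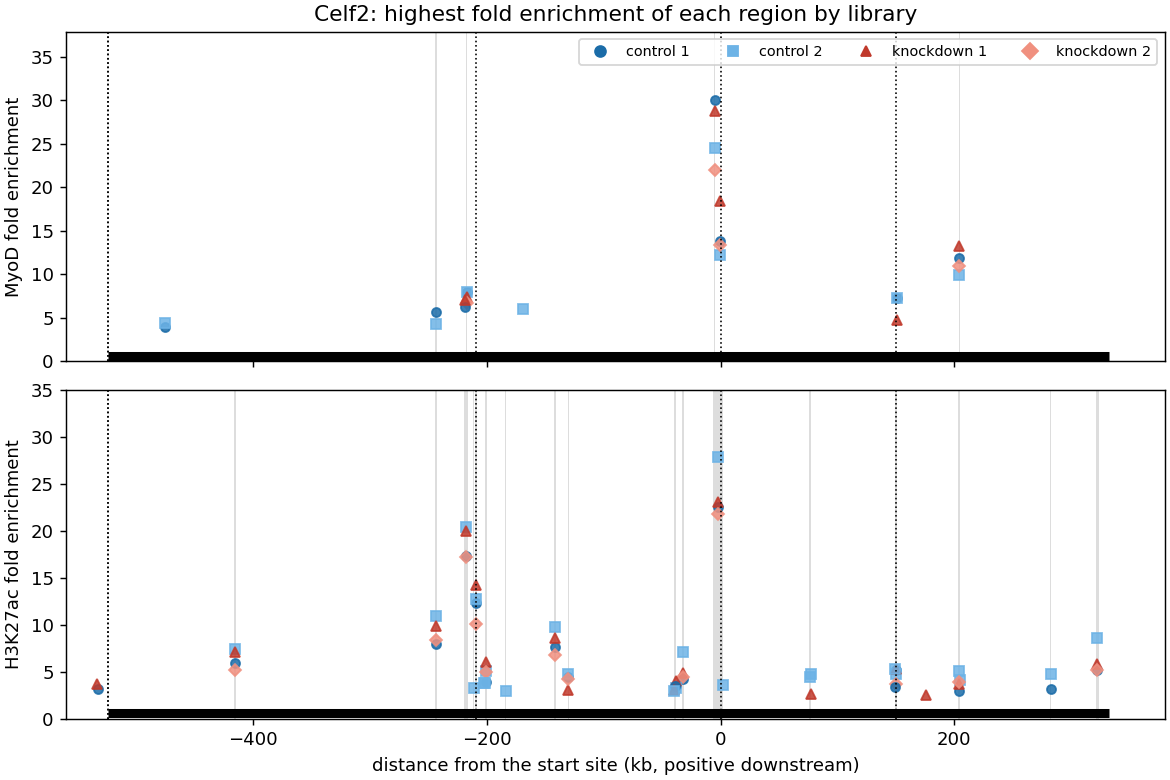
Fold enrichment of each MyoD region (top) and H3K27ac region (bottom) across Celf2 against distance in kb from the start at 6872035, with symbols as for Rbm24 and dotted lines at the annotated starts. The highest points of both antibodies lie just upstream of that start in all 4 libraries, and the farthest upstream MyoD region has points from the 2 controls only.

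Mbnl1 and Mbnl2 were of similar length and had similar numbers of H3K27ac regions, 41 and 43, but differed in MyoD. Mbnl1 had 5 MyoD regions, all in the gene body 55.6 kb or more downstream of the start at 60501179 and none constant, at 4.30 to 6.27-fold in the libraries with a peak. Its region of highest mean fold, chr3:60556645-60556970, had 5.63 in control 2 and 6.27 in knockdown 2. With lists of equal length 1 of the 5 was left. Its H3K27ac start region, chr3:60500126-60505750, had folds of 13.0 and 15.4 in controls and 18.9 and 14.1 in knockdowns, and ranked higher in both knockdowns. Mbnl1 also had the sole knockdown-only H3K27ac region of the set, chr3:60631353-60631695, 1.60 kb past the gene, at 2.73 and 3.67-fold. The second annotated start, 60472830, had no peak of either antibody in its window. The nearest H3K27ac region to it, chr3:60489880-60490083, had a peak in control 2 only, at 4.33-fold.

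Mbnl2 had 6 MyoD regions, all in the gene body, of which 3 were constant. Their folds were low: 5.95, 6.29, 8.10 and 4.70 at chr14:120299809-120300181, and 5.62, 5.96, 8.10 and 5.09 at chr14:120308045-120308403. The groups overlapped in rank at both. At chr14:120333550-120334001 the folds were 5.29 and 8.94 in controls and 4.81 and 3.67 in knockdowns, and both controls ranked higher, at percentiles of 9.56 and 54.4 against 6.85 and 1.47. A control-only MyoD region, chr14:120277575-120277890, had its summits 2.04 to 2.07 kb downstream of the start, at 4.96 and 4.64-fold. It was mixed with −log10 q of at least 5, and dropped out with folds of at least 5 and with lists of equal length. It lay in the constant H3K27ac region of the start, chr14:120274853-120280816, whose folds were 12.3 and 13.3 in controls and 11.8 and 10.8 in knockdowns. That region ranked higher in both controls, at percentiles of 82.4 and 81.9 against 73.2 and 79.5. The strongest H3K27ac region of Mbnl2, chr14:120294437-120304479, spanned 10.0 kb with folds of 14.3, 26.9, 20.0 and 20.8, control 1 and control 2 being the lowest and the highest.

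Mbnl3, on the X chromosome, had little signal. Its single MyoD region, chrX:51232230-51232487, had its summit at -26.4 kb from the start, upstream, with a peak of 4.64-fold in control 2 only. Its start window had no peak of either antibody. The nearest H3K27ac region, chrX:51204946-51205370, had its summit 0.978 kb downstream and peaks in control 1 (3.53-fold) and knockdown 1 (6.55-fold). Of 5 H3K27ac regions 1 was constant, chrX:51232375-51233477 in the upstream flank, at 7.99 and 10.1-fold in controls and 12.0 and 10.3-fold in knockdowns, and it ranked higher in both knockdowns.

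Rbfox2 had the most constant MyoD binding of the set, with 6 of 7 regions constant and all 7 in the gene body. The strongest, chr15:77163037-77163999, had folds of 26.1 and 24.5 in controls and 26.1 and 22.3 in knockdowns. It ranked at the 98.8 and 98.5 percentiles in controls and at 98.5 and 98.3 in knockdowns. The next, chr15:77156369-77157023, had folds of 14.3, 14.9, 19.9 and 11.4, with both controls between the knockdowns. The other 4 constant regions ran from 3.97 to 14.7-fold. The seventh, chr15:77151250-77151659, lacked a peak in knockdown 2 only, at 4.96, 4.97 and 7.0-fold in the others. The 3 strongest H3K27ac regions of Rbfox2 held constant MyoD sites, and the highest of them, chr15:77159743-77165341, had folds of 15.8 and 20.7 in controls and 16.2 and 16.7 in knockdowns.

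Ranks of the constant MyoD regions did not shift in 1 direction. Both controls ranked above both knockdowns at 4 of 17 (23.5%), against 15.9% of all constant MyoD regions, and both knockdowns above both controls at 5 of 17 (29.4%), against 16.4%. The groups overlapped at 8. The control-higher regions were at Celf2, Mbnl2 and Rbfox2 (2 regions), and the knockdown-higher ones at Rbm24, Rbm38, Celf2 (2 regions) and Rbfox2. Celf2 and Rbfox2 thus had regions of both kinds. At the strongest regions of Rbm24 and Rbfox2 the groups were almost tied. The closest percentiles were 99.0711 in control 2 and 99.0862 in knockdown 2 at Rbm24. At Rbfox2 they were 98.4686 in control 2 and 98.4635 in knockdown 1.

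**Figure D5:**
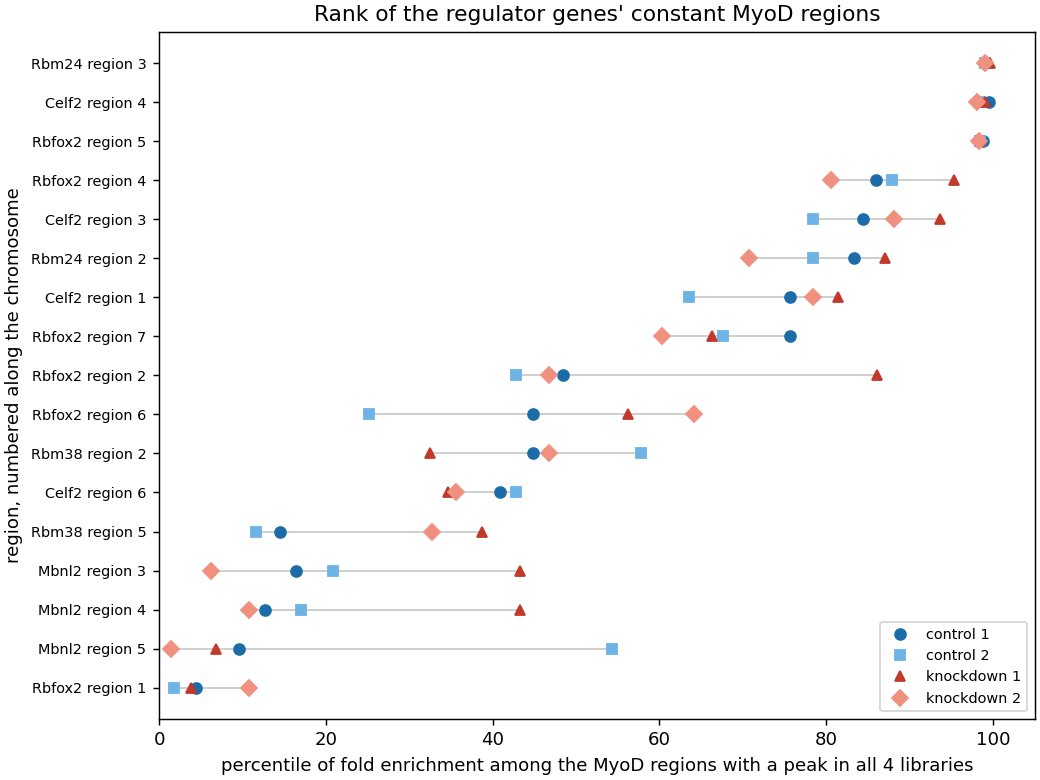
Percentile of the fold enrichment of the 17 constant MyoD regions among all 9958 constant MyoD regions of each library, 1 symbol per library, with a line from the lowest to the highest library. Rbm24 region 3, Celf2 region 4 and Rbfox2 region 5 sit above the 98 percentile in all 4 libraries, while Mbnl2 regions 3 to 5 have single libraries far from the other 3.

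For H3K27ac, 62 of the 174 regions (35.6%) were constant, against 43.5% of all H3K27ac regions. There were 2 control-only regions (1.15%), against 1.46%, and 1 knockdown-only region (0.575%), against 0.768%. Without control 1 there were 54 control-only regions, without control 2 there were 12 and without knockdown 1 there were 15. Knockdown-only regions numbered 23 without knockdown 2, 5 without control 2, 3 without knockdown 1 and 2 without control 1. All of the 8 genes had at least 1 constant region, as had 54.0% of all protein-coding genes, without allowance for gene length. Of the 62 constant regions, 13 ranked higher in both controls (21.0%, against 15.9% of all constant H3K27ac regions) and 11 in both knockdowns (17.7%, against 16.4%). Regions with a peak numbered 88 and 138 in controls and 112 and 69 in knockdowns. The mean was 113 ± 35.4 against 90.5 ± 30.4 (SD, n = 2 each), and the groups overlapped, with a two-sided exact permutation p = 0.667. The difference of -22.5 became 2.5 without control 2. With lists of equal length it was -12, and the two-sided exact permutation p was 0.333, the smallest that 2 against 2 libraries allow. It was -8 with −log10 q of at least 5, -4 with folds of at least 5 and -9.5 when peaks within 1000 bp were merged. The two-sided exact permutation p was above 0.333 in each of these. Single-library regions made up 78 of the 174 (44.8%, against 33.3% of all H3K27ac regions), of which control 2 held 49 and knockdown 1 held 22, whereas over all H3K27ac regions knockdown 1 had more of them (9525) than control 2 (7281). Knockdown 2 alone lacked a peak at 10 of the 13 regions found in exactly 3 libraries, as at 5108 of 6560 such regions in the whole series.

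MyoD sites of these genes lay mostly in acetylated chromatin. Of the 42 MyoD regions 38 overlapped an H3K27ac region by at least 1 base, 90.5% (95% exact Clopper-Pearson interval 77.4 to 97.3%, counting error only), against 69.5% of all MyoD regions. All of the 17 constant MyoD regions did so (interval 80.5 to 100%), against 88.5% of all constant ones. By library, the MyoD peaks in a region with H3K27ac in both libraries of the same group were 28 of 32 and 26 of 30 in controls, and 23 of 24 and 20 of 21 in knockdowns. These are shares of 87.5% and 86.7%, then 95.8% and 95.2%, against 70.3% and 69.7%, then 67.3% and 68.8%, over all MyoD regions. Neighbouring regions of 1 gene are not independent, and the difference from all regions was not tested. In the other direction 31 of 174 H3K27ac regions overlapped MyoD (17.8%, against 26.4% of all). Those with MyoD had a median width of 2.27 kb and a median mean fold of 7.13, and those without had 0.391 kb and 3.58. Over all regions the values were 1.55 kb and 6.76 with MyoD, and 0.463 kb and 3.85 without. By construction a wider region shares 1 base with a MyoD region more easily. Constant regions made up 26 of the 31 with MyoD and 36 of the 143 without. Over all H3K27ac regions they made up 11672 of 15877 with MyoD and 14458 of 44161 without.

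Other RNA-binding proteins of splicing and stability had fewer constant MyoD regions per gene. A list of 48 such genes, among them Ptbp1, Srsf1 and Elavl1, held 73 MyoD regions, 35 of them constant (47.9%, against 40.8% of all MyoD regions). Of the 73, 2 were control-only (2.74%, against 4.53% of all), at Hnrnpl and Ybx3, and none knockdown-only (against 0.725% of all). A constant MyoD region was found at 16 of the 48 genes (33.3%), at 5 of the 8 regulators (62.5%) and at 22.8% of all protein-coding genes. For H3K27ac the list had 214 regions, 94 constant (43.9%, against 43.5% of all H3K27ac regions), and 91.7% of its genes had a constant one. Of the 214, 3 were control-only (1.40%, against 1.46% of all), at Rbfox1, Rbm20 and Rbm47. A further 2 were knockdown-only (0.935%, against 0.768% of all), at Rbfox1 and Matr3. Of 30 genes whose transcripts the 8 regulators are known to splice or bind, 24 (80%) had a constant MyoD region. Those 30 held 101 MyoD regions, of which 47 were constant (46.5%, against 40.8% of all). Control-only were 7 (6.93%, against 4.53% of all), at Tpm1, Tpm2, Bin1, Neb, Actn1, Pkm and Vti1a. Knockdown-only was 1 (0.990%, against 0.725% of all), at Fhod3. Their 261 H3K27ac regions included 102 constant (39.1%, against 43.5% of all) and none control-only (against 1.46% of all). Of the 261, 2 were knockdown-only (0.766%, against 0.768% of all), at Pkm and Myog. A constant H3K27ac region was found at 93.3% of the 30 genes. Fxr1 is in both lists. Gene length was not allowed for in these shares.

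In highest fold over the 8 libraries, on a log2 scale, the gene closest to each regulator among 7827 genes with peaks of both antibodies was Tnik for Rbm24 (Euclidean distance 0.41), Rgs16 for Rbm38 (0.31) and Optn for Celf1 (0.31). For Celf2 it was Hes6 (0.30), for Mbnl1 Fen1 (0.46) and for Mbnl2 Ltbp1 (0.61). For Mbnl3 it was Phf2 (0.27) and for Rbfox2 Igf2r (0.27). A library without a peak entered as 0, so the distances reflect both which libraries had a peak and how high it was.

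The labelled cell type was checked on marker genes. All of the 10 markers of muscle stem cells and myoblasts, Pax7, Myod1 and Des among them, had a constant H3K27ac region, and 9 of 10 had a constant MyoD region. Constant H3K27ac regions were also found at 4 of 5 fibro-adipogenic, 4 of 5 endothelial, 1 of 5 immune, and 3 of 5 smooth muscle and pericyte markers. Constant MyoD regions were found at 2, 5, 1 and 2 of the 5 in the same order. Over all protein-coding genes 54.0% had a constant H3K27ac region and 22.8% a constant MyoD region. By constant MyoD regions the endothelial markers did not fall below the muscle markers. Ptprc, Pdgfra and Myh11 had no region of either antibody. Any part of other cells in the regulators' peaks was not tested.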

How the data were processed

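The series comprises 16 samples: 8 ChIP libraries, 2 per group and antibody, and 8 inputs, which were not analysed here. Per the submitters' processing notes, mm10 was the build, with the tools MACS2 2.1.1, bedtools 2.26.0, SAMtools 1.3, Bowtie2 2.3.2 and Picard 2.9.2. Their settings were not given in the sources used here. The authors deposited 1 peak list per library, with the fold enrichment of each peak as a linear ratio, its −log10 p and q values, and an integer score. The lowest −log10 q in the deposited lists was 1.30. Depth is unknown, and folds were used only to describe and rank peaks within a list. A peak missing from a list means only that it did not pass the authors' threshold there.

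Peaks were merged per antibody at a gap of 0 bp, and a library counted as present where its peak shared at least 1 base. Merged regions were assigned to RefSeq protein-coding genes (GRCm38.p6) by gene body or a 50 kb flank. Analysis used Python 3.11.15, numpy 2.4.6, scipy 1.17.1 and matplotlib 3.10.9. Class and gene assignment were tested on simulated data, with 1500 of 1500 sites recovered. The tests were exact permutations of region numbers over the 6 assignments of libraries to groups, and, as an alternative, exact sign-flips within replicate numbers. P-values then measure only the spread between these samples, which may be technical.

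The text names every regulator gene, giving its region of highest mean fold, the region nearest each start and every control-only or knockdown-only region. It also gives the nearest gene by profile, and, from the 2 gene lists, genes with a control-only or knockdown-only region. A further marker list is not reported here. The members and lists were chosen with earlier results of these data known. Alternatives covered the peak threshold, fold minimum, list length, merging, overlap, gene assignment, replicate block and each library left out.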

Additional observations from a re-analysis of the deposited data

How the results depend on the processing

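Over the 9 summary values, 86 alternative values stayed within the bounds set for each, 23 moved beyond them and 1 changed sign. Of the region counts per gene 143 stayed and 49 moved. For the H3K27ac difference of -22.5, values from -50.5 to -1 counted as having stayed. For the MyoD difference of -8.5, so did values from -10 to -3. For these differences the tally therefore records the sign and not the size. Control-only MyoD regions numbered 4, and 2 with lists of equal length, 2 with gene bodies only, 2 with a flank of 10 kb, and 5 to 9 with a library left out. Knockdown-only MyoD regions numbered 0, and 0 to 2 with a library left out. Control-only H3K27ac regions numbered 2, then 1 with folds of at least 5, 5 with lists of equal length, 5 where a peak had to cover 50% of the region, and 3 to 54 with a library left out. Knockdown-only H3K27ac regions numbered 1, then 0 with −log10 q of at least 5, 0 with folds of at least 5, 2 with lists of equal length, 0 with gene bodies only, and 2 to 23 with a library left out. Constant H3K27ac regions numbered 62, then 35 with folds of at least 5 and 38 where a peak had to cover 50% of the region. The H3K27ac difference of -22.5 regions ranged from -50.5 to 2.5 with a library left out, the sign changing without control 2. The cause of these shifts was not tested, except that a stricter threshold, a narrower flank or a library left out changes by construction how many regions can be counted.

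With replicate numbers as a replicate block the mean differences were the same, -8.5 for MyoD and -22.5 for H3K27ac, with exact sign-flip permutation p = 0.5 and p = 1, where the smallest possible is 0.5. Same-numbered libraries deviated together only weakly (r = 0.06 for MyoD over 24420 regions and 0.05 for H3K27ac over 60038), and no source used here says that a number marks a shared origin, so the libraries were not treated as pairs. Presence of a weak peak depends on depth, which the lists do not give.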

Other observations

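Acetylation ranks at MyoD sites were read over the whole series by the pattern of the MyoD peak. Of 544 constant H3K27ac regions that overlapped a control-only MyoD region, 126 (23.2%) ranked higher in both controls and 67 (12.3%) in both knockdowns. Of 76 that overlapped a knockdown-only MyoD region, 10 (13.2%) ranked higher in both controls and 19 (25.0%) in both knockdowns. Of 6971 over constant MyoD regions the numbers were 1329 (19.1%) and 1028 (14.7%). At the splicing regulators the 2 constant H3K27ac regions over control-only MyoD sites, at Rbm24 and Mbnl2, both ranked higher in controls, and of the 16 over constant MyoD sites none did and 3 ranked higher in knockdowns. MyoD and H3K27ac came from separate libraries, regions are not replicates, and these values carry no test.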
